A study of Mus musculus with 12 samples.

Results

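Nitro-oleic acid was compared with its vehicle in the livers of mice on a diet used to model NASH (nonalcoholic steatohepatitis), in which fatty liver becomes inflamed and scarred. The libraries were chosen by treatment: 3 from mice given nitro-oleic acid (OA-NO2) and 3 from mice given the vehicle, 6 of the 12 libraries of the series, each from 1 animal, with every gene of the count table taken in. The animals of both groups were C57BL/6J mice whose diet for 24 weeks held 40% of its calories as fat, with trans fat, fructose and cholesterol added. A minipump under the skin released polyethylene glycol (PEG) alone in the vehicle group and OA-NO2 dissolved in PEG, at 5 mg/kg/day, in the other, so diet, pump and PEG were shared and the nitro-fatty acid was not. The sources used here state no age, no sex and no start of the pump within the feeding period. The other 6 libraries came from mice on the same diet with a pump of oleic acid (OA), the parent fatty acid, at the same rate (n = 3), and from mice on standard chow for which no pump is mentioned (n = 3). They entered the fit and its shared estimate of spread, and are given beside some results as levels. OA-NO2 was also compared with OA for some genes.

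Nitro-oleic acid is oleic acid that carries a nitro group on its double bond, and so an electrophile that can bind thiols of proteins reversibly. In other cells and tissues, nitro-fatty acids are known to release the antioxidant factor NRF2 from its thiol-rich sensor KEAP1, to bring on heat shock genes, to dampen NF-kB signalling and to bind the nuclear receptor PPAR-gamma. In NASH, lipid-loaded hepatocytes are joined by inflammation and scarring: resident macrophages of the liver (Kupffer cells) are partly replaced by macrophages made from blood monocytes, stellate cells lay down collagen, and bile duct cells multiply.

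Total counts ran from 15972613 to 20613777 in the vehicle libraries and from 17449884 to 19786604 with OA-NO2. Albumin, the main product of hepatocytes, took 4.061% to 5.305% of counts with vehicle and 5.978% to 8.026% with OA-NO2, and mitochondrially encoded transcripts took 6.63% to 14.25% and 6.80% to 10.16%. On the first principal component of all 12 libraries the vehicle libraries lay between 22.46 and 54.36 and the OA-NO2 libraries at 10.28, -26.77 and -12.16, with chow between -71.87 and -44.72. OA replicate 3 lay at -13.48, apart from OA replicates 1 and 2 at 49.62 and 39.99, and it entered the estimate of spread shared by all groups. With library size alone as the scale, the median gene had a log2 fold change of -0.18, against 0.02 with trimmed mean of M values (TMM) scaling, so every difference here is relative to TMM.

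In edgeR's quasi-likelihood test with Benjamini-Hochberg adjustment, 3 of 14469 genes (0.0207%) were called at an adjusted p under 0.05. All 3 were higher with OA-NO2: Cd163, a scavenger receptor of resident macrophages, Nlrp12, a regulator of inflammatory signalling, and Mup17, a major urinary protein made by hepatocytes. No gene was called lower, although 1232 genes (8.51%) lay lower and 1049 (7.25%) higher at an unadjusted p under 0.05. At an adjusted p under 0.1 the count was 12 (0.0829%), 10 higher (0.0691%) and 2 lower (0.0138%), all with ranges apart, and the added genes were Marco, Timd4, Mup9, Mup14, Mup-ps22, Cntrl and Csrp3, higher, and Cd34 and Tinag, lower. Tinag had only 4 counts over the OA-NO2 libraries together. The CPM values (counts scaled to a common library size) of the 3 and 3 libraries did not overlap in 2850 genes (19.7%), 1328 (9.18%) in the higher direction and 1522 (10.5%) in the lower. These are the backgrounds for the counts of gene groups below. The number of calls varied between fits: 155 of 14853 genes tested (1.04%) were called without OA replicate 3, 65 higher (0.438%) and 90 lower (0.606%). With the vehicle and OA-NO2 libraries alone 62 were called (0.442%), 41 higher (0.292%) and 21 lower (0.15%). Without the filter on low counts 151 were called (0.604%), 75 higher (0.3%) and 76 lower (0.304%), and DESeq2 called 300 (2.08%), 131 higher (0.906%) and 169 lower (1.17%). Of the 62 genes, 77.4% were also among the 155, and 31.0% of the 155 were among the 62. Cd163 was called in all 19 alternatives that kept the threshold of 0.05, Nlrp12 in 12 and Mup17 in 9.

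**Figure D1:**
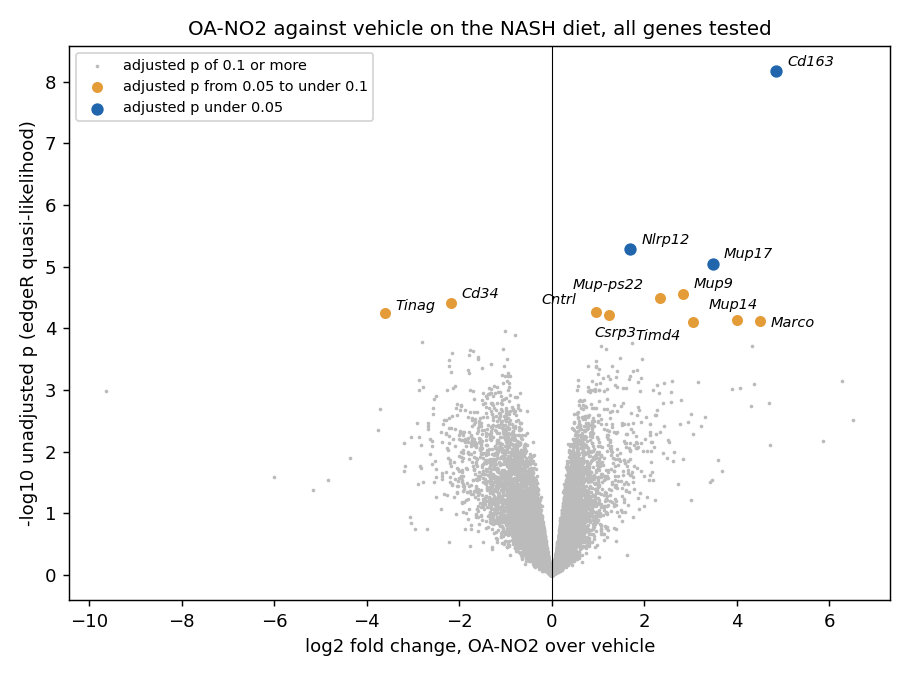
Each point is a gene, with its log2 fold change of OA-NO2 over vehicle on the x axis and -log10 of the unadjusted edgeR p on the y axis. The 3 blue points passed an adjusted p under 0.05 and the orange points an adjusted p under 0.1. Cd163 stands above all other genes at a log2 fold change of 4.85.

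Cd163 (ENSMUSG00000008845, GRCm38 chromosome 6, 124304656 to 124330527, plus strand), which takes up haemoglobin bound to haptoglobin, separated the groups most. It stood at 0.978, 0.640 and 0.296 CPM with vehicle and at 15.7, 22.8 and 16.9 CPM with OA-NO2. Every OA-NO2 library was thus far above every vehicle library, and within the span of the chow libraries or above it, at 15.9, 18.9 and 15.3 CPM. The log2 fold change was 4.85 ± 0.38 (SE; 95% interval 4.03 to 5.68; edgeR adjusted p = 9.81e-05). Leaving out each library in turn kept it between 4.49 and 5.32, with adjusted p from 2.35e-05 to 0.00256.

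Marco and Timd4, both further markers of resident macrophages, had the same layout with a wider spread. Marco, a scavenger receptor for bacteria and particles (chromosome 1, 120474538 to 120505024, minus strand), stood at 1.35, 1.97 and 0.549 CPM with vehicle and at 12.0, 56.3 and 17.9 CPM with OA-NO2, a log2 fold change of 4.50 (SE 0.81; adjusted p = 0.0965 in edgeR). Timd4, a receptor for phosphatidylserine on dying cells (chromosome 11, 46810800 to 46844332, plus strand), stood at 0.885, 0.853 and 0.845 CPM against 4.07, 12.0 and 5.68 CPM, a log2 fold change of 3.07 ± 0.55 (SE, adjusted p = 0.0965). Replicate 2 of OA-NO2 was the highest for all 3 genes and replicate 1 the lowest, and neither gene's ranges overlapped. Both were called with the vehicle and OA-NO2 libraries alone (adjusted p = 0.0252 and 0.0203) and without OA replicate 3 (0.0294 and 0.0206). Fcna, a ficolin of macrophages that binds microbial sugars, stood at 12.2, 12.3 and 13.2 CPM with vehicle and 17.9, 31.0 and 29.7 CPM with OA-NO2.

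**Figure D2:**
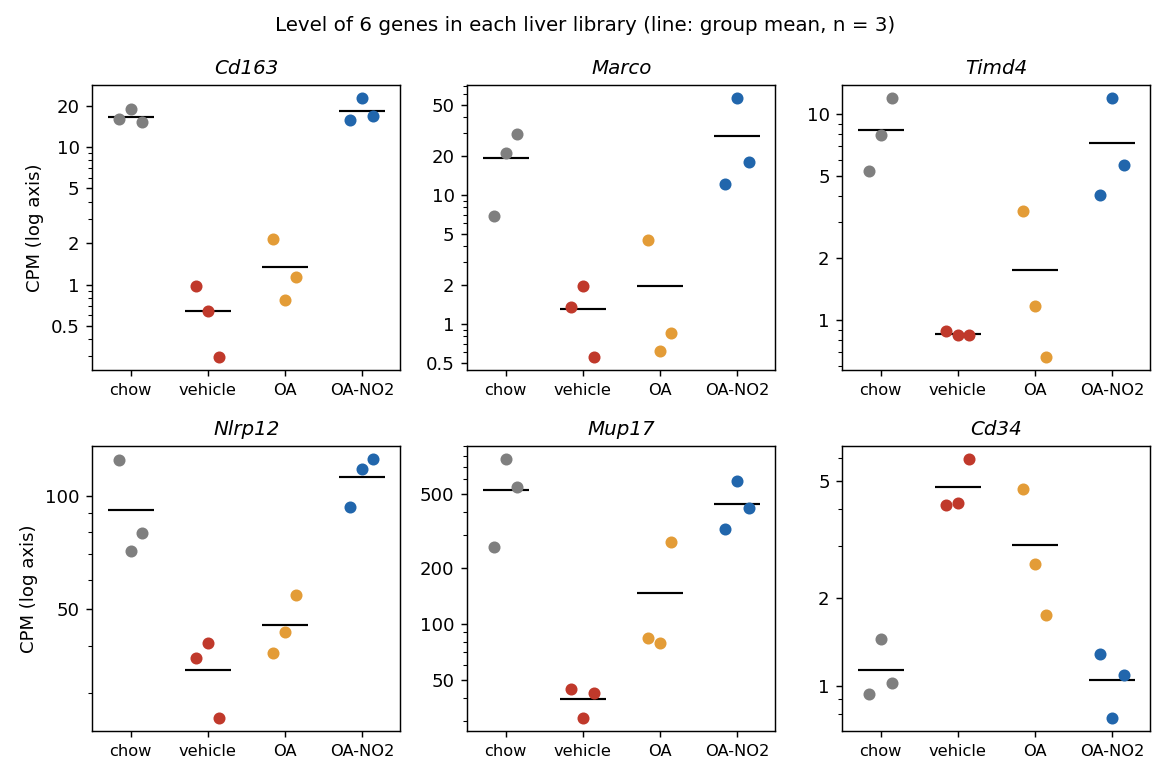
CPM on a log axis for 6 genes in each of the 12 liver libraries, with a line at each group's mean (n = 3). Cd163, Marco, Timd4, Nlrp12 and Mup17 lie higher in every OA-NO2 library than in every vehicle library, and Cd34 lies lower.

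Most other Kupffer cell genes did not share this layout. Clec4f, the lectin most specific to Kupffer cells, stood at 77.9, 92.7 and 88.1 CPM with vehicle and 90.7, 122 and 102 CPM with OA-NO2, and Vsig4, a complement receptor, at 29.4, 50.7 and 39.6 against 31.9, 44.8 and 48.9 CPM. The ranges of both overlapped. Csf1r, the receptor that macrophages need to survive, also overlapped, at 66.7, 56.7 and 74.2 against 65.4, 59.2 and 52.0 CPM. Among the 18 Kupffer genes tested, Cd163, Marco and Timd4 lay wholly higher (16.7%) and 7 wholly lower (38.9%), the latter with log2 fold changes between -0.66 (C1qb) and -0.25 (Clec1b). The 7 hold all 3 chains of complement C1q, of which C1qa stood at 98.2, 122 and 115 CPM against 69.4, 86.4 and 65.1 CPM. The list's median log2 fold change was -0.14 (-0.325 with library size alone, -0.245 without OA-NO2 replicate 2 and -0.00675 without vehicle replicate 3), and its summed level ran from 967 to 1114 CPM with vehicle and from 823 to 1060 CPM with OA-NO2. In whole liver, fewer cells of a type and less RNA per cell cannot be told apart.

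Macrophages made from monocytes, and the lipid-associated state they take in fatty liver, are marked by another set of genes, and these lay lower. Of 20 tested, 12 had OA-NO2 values wholly below vehicle (60%) and none above, with a median log2 fold change of -1.35, and 0 passed the adjusted threshold. Trem2, the lipid receptor that defines this state, stood at 12.0, 24.1 and 17.0 CPM with vehicle and 7.87, 2.02 and 4.59 CPM with OA-NO2, a log2 fold change of -1.87 (SE 0.49; adjusted p = 0.158 in edgeR). Gpnmb, a glycoprotein of lipid-laden macrophages, stood at 32.5, 69.5 and 45.6 CPM against 27.9, 1.66 and 8.34 CPM, so that replicate 1 of OA-NO2 lay just under the lowest vehicle library and the other two far under it. Ccr2, the chemokine receptor by which monocytes leave the marrow, stood at 13, 23.3 and 19.2 CPM against 6.90, 4.35 and 7.73 CPM, and Clec7a, a receptor for fungal glucans, at 44.9, 81.5 and 85.5 against 26.7, 14.5 and 23.9 CPM. Ccr2 and Clec7a were called lower in the fit of the vehicle and OA-NO2 libraries alone (adjusted p = 0.0497 and 0.0433), without OA replicate 3 (0.0274 for both) and by DESeq2 (0.0222 and 0.00463). Further macrophage genes had the same layout. Ms4a7, a membrane protein of macrophages that is not in the list, stood at 4.94, 9.06 and 9.81 CPM against 2.32, 1.35 and 1.63 CPM. Cx3cr1, the fractalkine receptor, stood at 8.53, 13.2 and 11.5 CPM against 5.46, 1.61 and 3.02 CPM. Cd63, a protein of late endosomes, stood at 26.5, 66.4 and 57.99 CPM against 22.8, 6.63 and 10.99 CPM, and Capg, an actin-capping protein, at 13.4, 15.9 and 15.3 against 9.11, 5.13 and 4.35 CPM. The ranges did not meet in any of these. Spp1 (osteopontin), Mmp12, Itgax and Lgals3 overlapped, and vehicle replicate 1 held the lowest vehicle value of each: Spp1 stood at 65.9, 460 and 414 CPM against 84.8, 41.5 and 70.0 CPM. Across the 20 listed genes, vehicle replicate 1 held the lowest vehicle value in 19 and OA-NO2 replicate 1 the highest OA-NO2 value in 14. Without 1 library the median of the list ran from -1.75 to -1.14.

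Genes that present antigen on MHC class II lay lower in a tighter manner. In 9 of 10 tested (90.0%) all OA-NO2 values were below all vehicle values, with a median log2 fold change of -0.998, and the summed level was 784, 991 and 1018 CPM with vehicle against 459, 464 and 354 CPM with OA-NO2. H2-Aa, a chain of the class II molecule, stood at 181, 258 and 233 CPM with vehicle and 87.8, 108 and 78.7 CPM with OA-NO2, a log2 fold change of -1.29 (SE 0.33; adjusted p = 0.156 in edgeR). H2-Aa and H2-Ab1, its partner chain, were called with the vehicle and OA-NO2 libraries alone (adjusted p = 0.0349 and 0.0347) and without OA replicate 3 (0.0445 and 0.0406). Ciita, the master regulator of these genes, stood at 2.84, 2.45 and 4.86 CPM against 2.21, 1.61 and 1.57 CPM. Cd83, a marker of mature dendritic cells, stood at 6.99, 7.51 and 7.35 CPM against 3.86, 2.12 and 2.48 CPM. B cell genes also stood low with OA-NO2: Ms4a1 (CD20) was at 3.08, 2.03 and 1.27 CPM with vehicle and 0.412, 0.466 and 0.725 CPM with OA-NO2, and 3 of 10 genes of the list did not overlap. Vehicle replicate 1 was the highest vehicle library in 9 of the 10, and without it the median log2 fold change went from -1.53 to -0.798. T and NK cell genes had 2 of 16 wholly lower (12.5%), near the background of all genes.

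Chemokines and their receptors had 12 of 23 genes wholly lower (52.2%) and 2 wholly higher (8.70%), with a median log2 fold change of -0.996. Cxcl16, a chemokine and scavenger receptor, stood at 18.1, 27.2 and 22.7 CPM with vehicle and 12.1, 9.79 and 10.8 CPM with OA-NO2, a log2 fold change of -1.05 (SE 0.21; adjusted p = 0.138 in edgeR). Ccl5, which draws in T cells, stood at 4.75, 4.69 and 5.11 CPM against 2.01, 2.07 and 1.81 CPM, with little spread in either group. Ccl2, the ligand of Ccr2, overlapped, at 2.89, 5.97 and 4.48 against 3.14, 0.466 and 1.45 CPM. Pf4 (platelet factor 4, also a CXC chemokine) stood at 2.56, 3.41 and 3.30 CPM against 1.08, 0.725 and 0.846 CPM. Toll-like receptor and NF-kB genes had 6 of 28 wholly lower (21.4%) and a median of -0.42, and interferon-induced genes had 7 of 28 (25.0%) and a median of -0.26. The interferon median was -0.46 with library size alone and -0.17 without vehicle replicate 1, the highest vehicle library in 18 of the 28 genes. Nfkbia, the NF-kB inhibitor that NF-kB itself induces, overlapped, at 47.2, 55.4 and 33.1 against 50.4, 74.5 and 42.5 CPM. Tnf was too low to be tested, with 10, 5 and 4 counts in the vehicle libraries and 10, 3 and 1 with OA-NO2.

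Nlrp12 (ENSMUSG00000078817, chromosome 7, 3218784 to 3249740, minus strand) is an NLR protein known in mouse to restrain NF-kB signalling. It stood at 37.1, 40.8 and 25.8 CPM with vehicle and at 93.6, 118 and 126 CPM with OA-NO2, and chow libraries stood at 124, 71.6 and 80.0 CPM. The groups lay well apart, and the log2 fold change was 1.70 ± 0.23 (SE; 95% interval 1.197 to 2.207; edgeR adjusted p = 0.0377). The call was lost without chow replicate 3, any 1 vehicle library, or OA-NO2 replicate 2 or 3 (highest adjusted p = 0.188), while the log2 fold change stayed between 1.53 and 1.84. MicroRNA genes on the opposite strand lie within its span, and the sources used here do not state whether strand was used in counting. Il6ra, a receptor for interleukin 6 (47.9, 42.5 and 22.4 against 89.5, 122 and 81.9 CPM), and Il1r1, the interleukin 1 receptor (31.4, 49.3 and 47.6 against 76.7, 87.6 and 71.5 CPM), also lay wholly higher. Casp1, the inflammasome protease, lay wholly lower, at 5.73, 5.92 and 6.00 against 3.76, 4.04 and 3.75 CPM. The cytokine and inflammasome list had 3 of 15 genes wholly higher (20%) and 3 wholly lower (20%). Of its 15 genes, only Nlrp12 passed the adjusted threshold.

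The promoter windows of these genes, 250 bases before to 50 after the start of transcription, were read for motifs of the pathways that nitro-fatty acids are known to touch. Of the 47 named genes 36 had a RefSeq window (GRCm38.p6). The motifs, searched on both strands with overlapping matches counted, were the antioxidant response element core TGACNNNGC, the heat shock element GAANNTTC and the core of the kappa-B site, to which NF-kB binds, which 12.4%, 7.86% and 50.8% of all 32851 windows hold. The windows of Cd163 (chr6:124304401-124304700, plus strand), Marco (chr1:120504975-120505274, minus strand) and Timd4 (chr11:46810549-46810848, plus strand) follow, 5′ to 3′, with kappa-B core matches in capitals. Those of Nlrp12 (chr7:3249691-3249990, minus strand), with no match to any of the motifs, and Hspa1b (chr17:34959189-34959488, minus strand), with its heat shock element in capitals, are shown beside them.
Cd163: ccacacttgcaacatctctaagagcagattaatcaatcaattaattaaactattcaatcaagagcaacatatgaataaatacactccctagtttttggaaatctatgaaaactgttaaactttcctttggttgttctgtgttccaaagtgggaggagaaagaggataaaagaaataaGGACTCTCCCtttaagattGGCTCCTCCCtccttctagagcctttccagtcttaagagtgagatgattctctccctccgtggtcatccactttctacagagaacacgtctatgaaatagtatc
Marco: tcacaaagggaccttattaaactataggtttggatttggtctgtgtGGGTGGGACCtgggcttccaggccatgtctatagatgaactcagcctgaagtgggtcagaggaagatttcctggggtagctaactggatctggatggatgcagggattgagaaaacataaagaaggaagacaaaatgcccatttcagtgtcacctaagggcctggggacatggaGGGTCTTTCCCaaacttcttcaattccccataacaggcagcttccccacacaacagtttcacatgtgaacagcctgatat
Timd4: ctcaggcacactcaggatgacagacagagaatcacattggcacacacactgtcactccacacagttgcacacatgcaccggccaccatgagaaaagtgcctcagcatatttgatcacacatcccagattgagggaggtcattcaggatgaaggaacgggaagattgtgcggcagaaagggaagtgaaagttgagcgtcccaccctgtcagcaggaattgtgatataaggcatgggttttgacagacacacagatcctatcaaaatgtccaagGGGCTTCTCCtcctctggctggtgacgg
Nlrp12: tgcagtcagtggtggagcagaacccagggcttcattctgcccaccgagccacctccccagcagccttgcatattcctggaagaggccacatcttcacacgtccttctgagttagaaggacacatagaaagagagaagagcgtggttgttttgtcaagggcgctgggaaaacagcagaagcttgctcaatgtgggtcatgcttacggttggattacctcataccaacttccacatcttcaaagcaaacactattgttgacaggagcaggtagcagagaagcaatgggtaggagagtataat
Hspa1b: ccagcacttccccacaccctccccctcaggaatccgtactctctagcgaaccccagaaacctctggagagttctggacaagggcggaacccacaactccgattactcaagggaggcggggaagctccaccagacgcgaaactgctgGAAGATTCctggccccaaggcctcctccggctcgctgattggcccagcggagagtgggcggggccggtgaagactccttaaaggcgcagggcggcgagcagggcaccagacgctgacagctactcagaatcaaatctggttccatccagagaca
Cd163 held 2 kappa-B cores, Marco 3, a pair of them overlapping, and Timd4 1. The Timd4 match lies after the start of transcription, from position 23. The Hspa1b window also held 4 kappa-B cores, which are not marked. The windows of Cd163, Marco, Timd4 and Nlrp12 held no antioxidant response or heat shock element. These are matches of letters and were not tested as binding sites.

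Matrix genes, the substance of scar, lay lower as a group. Of 28 collagen and matrix genes, 26 had a log2 fold change below 0 and 10 (35.7%) did not overlap, all lower, with a median of -1.11. None passed the adjusted threshold in edgeR. Col1a1, the main collagen of scar (chromosome 11, 94936224 to 94953042), stood at 29.4, 47.5 and 80.7 CPM with vehicle and 35.4, 5.65 and 10.4 CPM with OA-NO2. Its ranges overlapped, since replicate 1 of OA-NO2 stood above vehicle replicate 1 (log2 fold change -1.61 ± 0.66, SE, edgeR adjusted p = 0.260). Col3a1, its partner in young scar, stood at 81.8, 165 and 244 CPM against 79.8, 18.1 and 35.4 CPM, and Sparc, a matricellular protein, at 78.3, 98.7 and 151 against 64.9, 38.8 and 46.0 CPM. Timp1, the inhibitor of matrix proteases used as a marker of fibrosis, stood at 3.12, 8.47 and 6.55 CPM against 2.42, 0.518 and 0.725 CPM, a log2 fold change of -2.29 ± 0.69 (SE, adjusted p = 0.173). Mmp2, the gelatinase of stellate cells, stood at 4.94, 9.86 and 10.9 CPM against 3.76, 1.97 and 2.84 CPM, and Lox, which cross-links collagen, at 1.16, 3.94 and 3.68 against 1.13, 0.259 and 0.604 CPM. Across the 28 genes, OA-NO2 replicate 1 held the highest OA-NO2 value in 25 and replicate 2 the lowest in 27, so the animals differed among themselves along the same genes. Without 1 library the median of the list ran from -1.52 to -0.77. Sparc and Mmp2 were called lower without OA replicate 3 (adjusted p = 0.0465 and 0.0436) and by DESeq2 (0.0195 and 0.0286), and not with the vehicle and OA-NO2 libraries alone (0.0933 and 0.0781).

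Stellate cells, which make most of this matrix, were followed by 15 further genes, of which 3 lay wholly lower (20%) and 1 wholly higher. Vim (vimentin) stood at 47.9, 72.1 and 67.7 CPM with vehicle and 36.2, 27.97 and 33.1 CPM with OA-NO2. Acta2, the smooth muscle actin of myofibroblasts, overlapped, at 2.84, 2.77 and 4.40 against 3.71, 0.414 and 0.967 CPM. In the TGF-beta pathway 7 of 20 genes lay wholly lower (35.0%): the ligand Tgfb2 stood at 1.82, 3.94 and 2.41 CPM against 1.08, 0.207 and 0.604 CPM, and the receptor Tgfbr1 at 38.3, 52.2 and 46.2 against 33.0, 22.4 and 31.7 CPM. Tgfb1, the best known ligand in fibrosis, overlapped, at 13.7, 12.4 and 17.5 against 12.8, 6.89 and 8.22 CPM. Gsn (gelsolin), which severs actin filaments, stood at 36.8, 64.004 and 48.6 CPM against 20.4, 13.4 and 15.4 CPM.

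**Figure D3:**
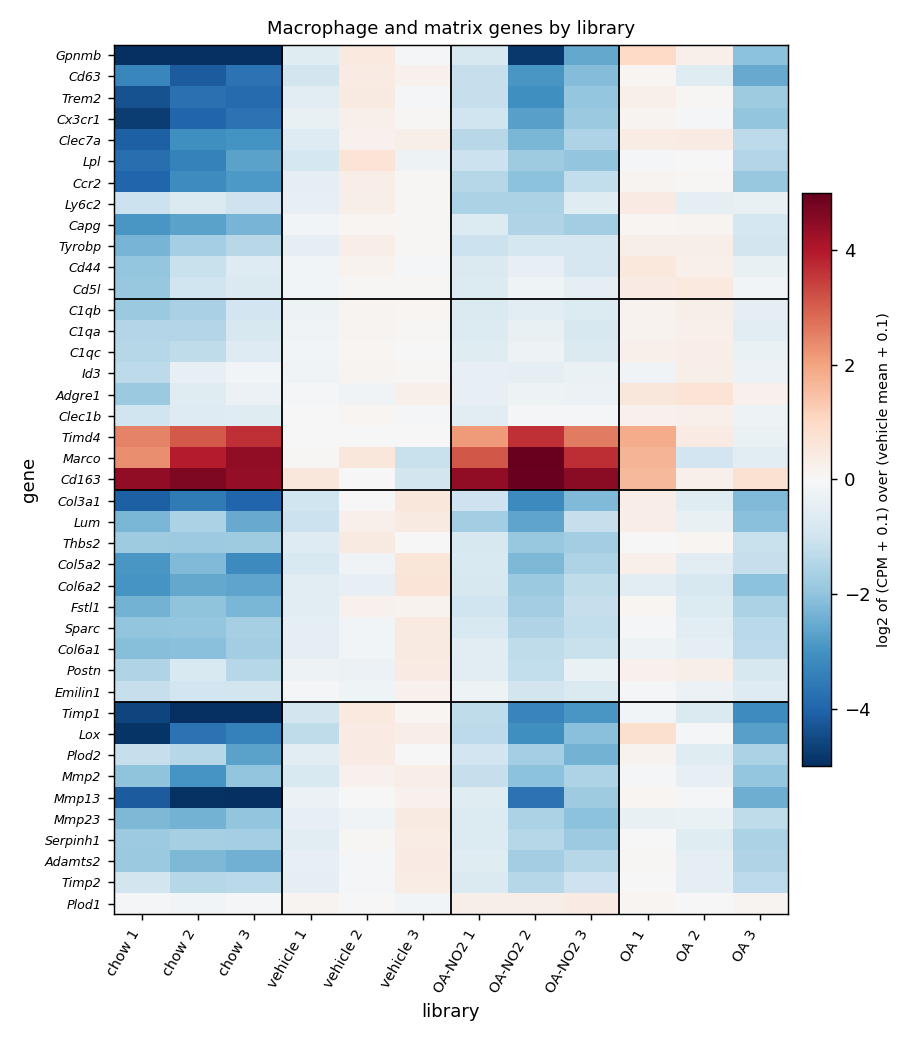
Colour gives log2 of CPM plus 0.1 over the vehicle mean plus 0.1, capped at 5 in size, for 41 genes (y axis) in the 12 libraries (x axis). Blocks from the top are monocyte-derived macrophage, Kupffer cell, matrix, and cross-linking and protease genes, limited to those whose vehicle and OA-NO2 ranges do not overlap. Timd4, Marco and Cd163 stand out in red with OA-NO2 and chow, and OA replicate 3 is bluer than OA replicates 1 and 2 in most other genes.

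Bile duct cells were followed by 14 genes, since they multiply in NASH and also make matrix signals. Of these 7 lay wholly lower (50%) and 1 wholly higher (7.14%), and the median log2 fold change was -1.59. Vehicle replicate 1 held the lowest vehicle value in 13 of the 14, and without 1 library the median ran from -1.9 to -1.19. Krt19, a keratin of bile ducts, stood at 1.07, 3.73 and 2.96 CPM with vehicle and 0.978, 0.207 and 0.302 CPM with OA-NO2, and Cd24a at 6.52, 22.7 and 17.6 against 4.53, 4.35 and 5.01 CPM. Cd34, carried by endothelial cells and fibroblasts (chromosome 1, 194938819 to 194961279), stood at 4.15, 4.21 and 5.96 CPM with vehicle and 1.29, 0.777 and 1.09 CPM with OA-NO2, a log2 fold change of -2.18 (SE 0.36; adjusted p = 0.0948 in edgeR). It was the lowest p among genes that lay lower, and was called in 5 of 19 alternatives. It was the only one of 15 endothelial genes whose ranges did not overlap: Pecam1 stood at 19.0, 15.9 and 23.9 CPM against 18.9, 17.5 and 15.5 CPM and Stab2, a receptor of sinusoids, at 30.5, 30.6 and 38.2 against 42.9, 29.6 and 30.4 CPM. Cell cycle genes had 11 of 25 wholly lower (44.0%), with a median of -0.72. Mki67, a marker of dividing cells, stood at 4.19, 6.34 and 8.28 CPM against 3.76, 2.59 and 2.42 CPM, while Cdkn1a, an inhibitor of the cycle, lay wholly higher at 15.2, 18.6 and 20.03 against 47.7, 30.9 and 45.2 CPM.

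**Figure D4:**
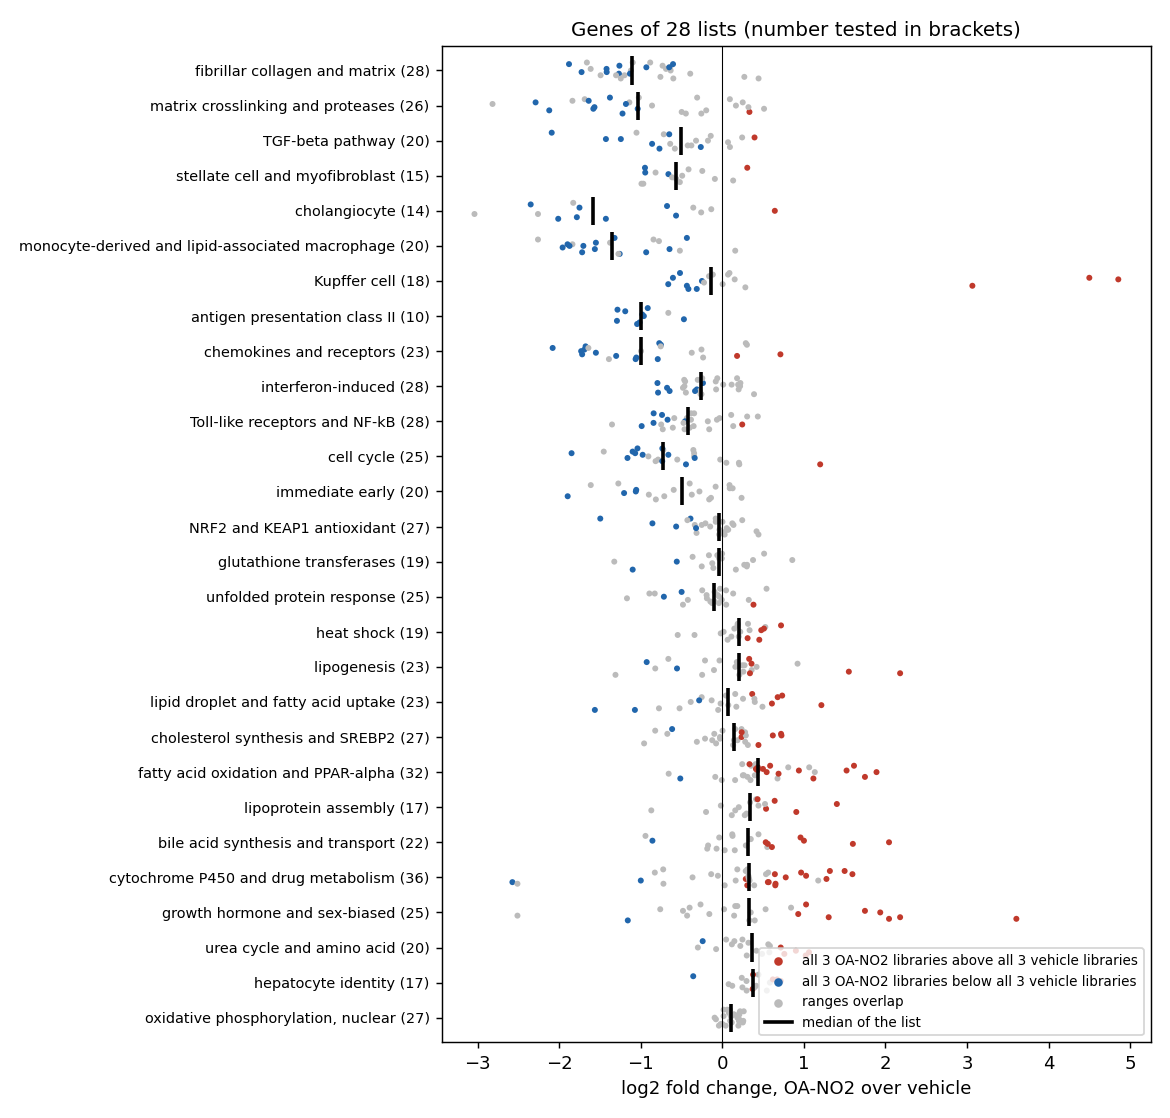
Each point is a gene of 1 of 28 lists, placed by its log2 fold change of OA-NO2 over vehicle, with red and blue for ranges that do not overlap and a bar at the median of the list. Matrix, bile duct, monocyte-derived macrophage, class II and chemokine genes lie mostly to the left, hepatocyte metabolism genes mostly to the right, and 3 Kupffer genes lie far to the right of the rest of theirs.

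Some genes of hepatocyte metabolism lay higher. In the list of fatty acid oxidation and PPAR-alpha targets, 15 of 32 genes (46.9%) lay wholly higher and 1 wholly lower, with a median log2 fold change of 0.43 (0.23 with library size alone). None passed the adjusted threshold. Cyp4a14, a fatty acid omega-hydroxylase and PPAR-alpha target, stood at 2171, 1432 and 446 CPM with vehicle and 4144, 4098 and 4156 CPM with OA-NO2, a log2 fold change of 1.61 (SE 0.48; adjusted p = 0.172 in edgeR). The OA-NO2 values of Cyp4a14 lay close together and the vehicle values spread widely, lowest in replicate 3. Acot1, a thioesterase that releases fatty acids from CoA, stood at 54.0, 26.4 and 13.8 CPM against 118, 128 and 103 CPM. Cpt1a, the gate of mitochondrial oxidation, stood at 666, 508 and 584 against 724, 677 and 978 CPM. Hacl1, which shortens phytanic acid in peroxisomes, stood at 127, 74.5 and 55.1 CPM against 220, 294 and 340 CPM, a log2 fold change of 1.73 ± 0.34 (SE, adjusted p = 0.138). The adjacent Cyp4a genes are close copies, and the sources used here do not state how reads matching several of them were counted. Fgf21, a hormone that PPAR-alpha induces in liver, did not follow, at 10.3, 19.2 and 18.5 against 18.6, 5.65 and 6.10 CPM. Nuclear genes of oxidative phosphorylation gave a contrast: 0 of 27 had ranges apart, with a median of 0.11 (-0.0998 with library size alone, 0.0454 without vehicle replicate 2 and 0.243 without OA-NO2 replicate 1).

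Bile acid genes had 7 of 22 wholly higher (31.8%) and lipoprotein genes 5 of 17 (29.4%). Their median log2 fold changes were 0.314 and 0.341 (0.138 and 0.133 with library size alone). Cyp8b1, which sets the share of cholic acid, stood at 205, 115 and 149 CPM with vehicle and 451, 339 and 635 CPM with OA-NO2, and Slc10a1, the main importer of bile acids, at 411, 399 and 268 against 530, 719 and 909 CPM. Cyp7a1, which limits the rate of the main route to bile acids, overlapped, at 207, 114 and 88.7 against 165, 98.0 and 126 CPM. Angptl4, an inhibitor of lipoprotein lipase, stood at 70.5, 58.5 and 55.5 CPM against 182, 149 and 157 CPM. Cyp8b1 and Angptl4 were called with the vehicle and OA-NO2 libraries alone (adjusted p = 0.0497 and 0.0103) and by DESeq2 (0.00381 and 0.00618). Neither was called in the edgeR fit of all 12 libraries (adjusted p = 0.138 for both). Without OA replicate 3 Cyp8b1 was called (0.0406) and Angptl4 was not (0.0607). Each was called in 4 of 19 alternatives. Of 36 cytochrome P450 and drug metabolism genes, 14 lay wholly higher (38.9%) and 2 wholly lower, with a median of 0.325 (0.12 with library size alone). Nr1i3, the nuclear receptor CAR, stood at 22.1, 13.5 and 8.24 CPM against 47.0, 46.4 and 30.4 CPM. Cyp2a4, a female-biased steroid hydroxylase, went the other way, at 17.9, 3.62 and 6.30 against 1.08, 2.07 and 1.51 CPM. Hnf4a, the main transcription factor of hepatocyte identity, stood at 361, 358 and 334 CPM with vehicle and 568, 498 and 552 CPM with OA-NO2. Of 17 genes of the hepatocyte list, 5 lay wholly higher (29.4%) and 1 wholly lower (5.88%). Their median log2 fold change was 0.38 (0.18 with library size alone). None passed the adjusted threshold in edgeR. The summed level of the list, in which the most abundant genes weigh most, was 80490, 81040 and 62000 CPM with vehicle and 91300, 109700 and 127000 CPM with OA-NO2. These sums did not overlap. The part that this difference has in the levels of single genes was not tested.

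Growth hormone pulses set the sex-biased genes of the liver, to which many major urinary proteins belong. Mup17 (ENSMUSG00000096688, chromosome 4, 61591929 to 61595871, minus strand) stood at 44.6, 31.1 and 42.1 CPM with vehicle and 321, 583 and 418 CPM with OA-NO2, a log2 fold change of 3.49 ± 0.51 (SE; adjusted p = 0.0436 in edgeR). The groups lay far apart, but the call was lost without any 1 of the vehicle or OA-NO2 libraries, or without chow replicate 2 or 3. Major urinary proteins are near-identical copies in 1 cluster, so the value of any single member is uncertain. Of 31 Mup genes tested, pseudogenes among them, 26 had a log2 fold change above 0. Wholly higher lay 19 and wholly lower 0, against 9.18% and 10.5% of all genes. Since copies can share reads, the 19 are not separate results. The median was 1.60 (1.37 with library size alone). Their sum, which reads shared between copies affect less, was 3716, 4549 and 4544 CPM with vehicle and 6587, 9852 and 9468 CPM with OA-NO2, against 14870 to 20660 CPM in chow. Among 25 growth hormone and sex-biased genes 8 lay wholly higher (32%) and 1 wholly lower, with a median of 0.332 (0.124 with library size alone). Elovl3, a fatty acid elongase, stood at 21.2, 24.6 and 26.3 CPM against 95.2, 124 and 107 CPM, and Slco1a1, an organic anion transporter, at 23.9, 21.7 and 40.4 against 108, 119 and 128 CPM. Hsd3b5, a male-specific steroid dehydrogenase, stood at 0.186, 0.213 and 0.211 CPM against 1.85, 4.82 and 0.906 CPM, where chow stood at a mean of 56.6 CPM. Elovl3 and Slco1a1 were called with the vehicle and OA-NO2 libraries alone (adjusted p = 0.000652 and 0.00883) and without OA replicate 3 (0.0256 and 0.00274). In the edgeR fit of all 12 libraries neither was called (adjusted p = 0.138 and 0.162), nor was any other of the 25. Elovl3 was called in 4 of 19 alternatives and Slco1a1 in 3. The receptor Ghr and the factor Stat5b overlapped, with log2 fold changes of 0.35 and 0.15.

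**Figure D5:**
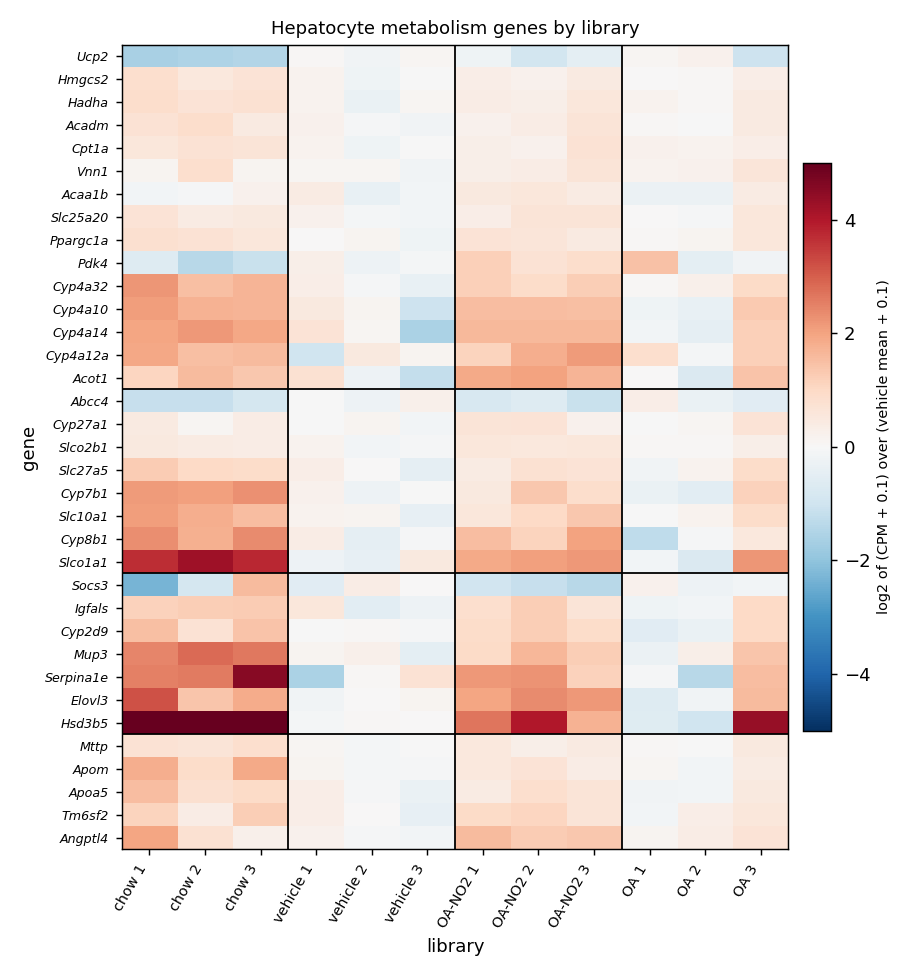
Colour gives log2 of CPM plus 0.1 over the vehicle mean plus 0.1, capped at 5 in size, for 35 genes (y axis) in the 12 libraries (x axis), in blocks of fatty acid oxidation, bile acid, sex-biased and lipoprotein genes whose vehicle and OA-NO2 ranges do not overlap, 1 of which is not shown. Most are redder in all 3 OA-NO2 libraries and in chow, and OA replicate 3 resembles them more than OA replicates 1 and 2 do.

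The targets of NRF2, the pathway for which nitro-fatty acids are best known, did not lie higher. Of 27 genes tested 0 lay wholly higher and 5 wholly lower (18.5%), with a median log2 fold change of -0.04 (-0.25 with library size alone and -0.173 without OA-NO2 replicate 3). Nqo1, a quinone reductase, stood at 22.4, 16.8 and 15.8 CPM with vehicle and 11.8, 13.3 and 18.5 CPM with OA-NO2. Hmox1, haem oxygenase, stood at 24.9, 31.1 and 31.5 against 32.6, 29.3 and 27.4 CPM, and Gclc, the limiting enzyme of glutathione synthesis, at 274, 271 and 359 against 289, 247 and 381 CPM. The ranges of all 3 overlapped. The 95% interval of the log2 fold change was -0.83 to 0.16 for Nqo1, -0.56 to 0.62 for Hmox1 and -0.43 to 0.47 for Gclc; the sign of Hmox1 and Gclc, near 0 here, turned negative with library size alone. Nfe2l2, which encodes NRF2, stood at 88.3, 94.2 and 93.5 CPM against 88.1, 54.3 and 68.3 CPM. Of 19 glutathione transferases 2 lay wholly lower (10.5%), as many as the background. Ptgr1, which reduces nitroalkenes, overlapped, at 2.05, 5.92 and 5.49 against 2.06, 1.61 and 2.30 CPM.

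Heat shock genes had 5 of 19 wholly higher (26.3%) with a median of 0.20 (0.01 with library size alone). Hsph1, a large chaperone, stood at 31.1, 26.1 and 15.4 CPM against 49.4, 33.8 and 36.2 CPM, and Dnajb1, a co-chaperone, at 19.3, 16.1 and 13.8 against 27.4, 20.56 and 20.54 CPM. Hspa1b, the inducible HSP70 whose promoter window holds a heat shock element, overlapped, at 6.99, 5.12 and 7.82 against 10.4, 6.06 and 12.3 CPM. The unfolded protein response had 1 of 25 wholly higher (4%) and 2 wholly lower (8%). Immediate early genes had 4 of 20 wholly lower (20%), among them Junb at 25.1, 37.6 and 54.9 against 21.8, 16.9 and 12.4 CPM.

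Lipid droplet and uptake genes are the list nearest to steatosis, but liver fat itself is not in these data. Of 23 tested, 5 lay wholly higher (21.7%, against 9.18% of all genes) and 3 wholly lower (13%, against 10.5%). The median was 0.07 (-0.135 with library size alone, -0.0754 without OA-NO2 replicate 3 and 0.199 without OA-NO2 replicate 1). Cidea, which fuses droplets, stood at 54.3, 31.5 and 48.0 CPM with vehicle and 69.7, 101 and 140 CPM with OA-NO2, where chow stood at 1.92 to 3.43 CPM. Plin5, a droplet coat protein of oxidative tissues, stood at 52.7, 57.2 and 51.4 against 92.8, 93.4 and 82.1 CPM. Vldlr, a lipoprotein receptor, lay wholly lower at 13.4, 14.4 and 13.1 against 7.10, 5.75 and 6.58 CPM, as did Lpl, lipoprotein lipase, at 130, 387 and 201 against 114, 68.8 and 60.2 CPM. Cd36, Cidec and Pparg overlapped. Cd36, a fatty acid importer, stood at 406, 336 and 349 against 372, 319 and 610 CPM, Cidec, a relative of Cidea, at 115, 130 and 166 against 127, 110 and 139 CPM, and Pparg, the nuclear receptor behind fat storage, at 25.7, 28.4 and 41.3 against 15.3, 23.4 and 27.7 CPM. Of 23 lipogenesis genes 5 lay wholly higher (21.7%) and 2 wholly lower (8.7%). Scd1, the stearoyl-CoA desaturase, stood at 16695, 13646 and 12090 CPM against 17813, 16889 and 18978 CPM, and Fasn, fatty acid synthase, overlapped, at 103, 82.7 and 235 against 140, 44.4 and 82.2 CPM. Cfd (adipsin), a complement protease made mostly by fat, lay wholly higher at 9.74, 31.8 and 14.9 against 60.8, 125 and 59.2 CPM. The fat cell markers Adipoq, Lep and Plin1 had at most 3 counts in any OA-NO2 library, and 40, 8 and 15 counts in vehicle replicate 1.

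Other genes with the lowest p had no list. Csrp3, a muscle LIM protein, stood at 22.4, 18.7 and 18.9 CPM with vehicle and 31.6, 48.5 and 61.4 CPM with OA-NO2, and Cntrl (centriolin), a centrosome protein, at 16.6, 17.1 and 15.9 against 29.6, 30.1 and 36.4 CPM. Tmc7, a membrane protein, stood at 2.56, 2.72 and 2.24 against 9.37, 7.30 and 5.13 CPM, and Fbxo31, a part of a ubiquitin ligase, at 48.4, 29.2 and 26.3 against 71.1, 84.7 and 77.2 CPM. In the lower direction Ntrk2, a neurotrophin receptor, stood at 18.5, 15.9 and 24.6 against 8.44, 8.91 and 12.0 CPM, and Robo2, a guidance receptor, at 5.27, 13.3 and 10.1 against 3.96, 1.86 and 3.02 CPM. Tinag, a basement membrane protein of kidney tubules, stood at 0.932, 0.586 and 1.35 against 0.103, 0.0518 and 0.0604 CPM, and Slc2a4, the insulin-responsive glucose transporter GLUT4, at 0.746, 0.746 and 1.27 against 0.206, 0.104 and 0.0604 CPM. Over the OA-NO2 libraries together, Tinag had only 4 counts and Slc2a4 7, against 63 and 60 with vehicle. The ciliary motor subunit Dync2li1 (1.72, 3.89 and 2.75 against 0.669, 1.04 and 0.725 CPM), the tubulin Tuba1a (5.08, 6.40 and 10.1 against 2.78, 1.66 and 2.72 CPM) and Ccdc85b (16.0, 15.2 and 17.7 against 9.47, 9.38 and 9.30 CPM) lay lower too. None of these passed the adjusted threshold of 0.05.

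OA-NO2 and OA differ by the nitro group and were infused at the same rate, so some of the same genes and lists were read between them as 1 pair. At an unadjusted p under 0.05, 762 genes (5.27%) lay higher and 978 (6.76%) lower with OA-NO2. In edgeR 1 gene of 14469 was called (0.00691%), Cd163, at 2.14, 0.769 and 1.14 CPM with OA, a log2 fold change of 3.76 ± 0.35 for OA-NO2 over OA (SE; 95% interval 3.0004 to 4.5163; adjusted p = 0.00085). For Nlrp12 the difference was 1.31 ± 0.23 (95% interval 0.81 to 1.81; adjusted p = 0.243), with OA at 38.2, 43.5 and 54.6 CPM. For Mup17 it was 1.59 ± 0.47 (adjusted p = 0.313), with OA replicate 3 at 277 CPM and the other two at 84.1 and 79.1 CPM. For Ntrk2 it was -1.10 ± 0.19 and for Cidea 1.53 ± 0.28 (edgeR adjusted p = 0.243 for both). For Marco it was 3.85 ± 0.77 (95% interval 2.19 to 5.51; adjusted p = 0.313) and for Timd4 2.03 ± 0.52 (0.92 to 3.14; adjusted p = 0.313), so a difference of either size was not called at this spread. Median log2 fold changes over OA, with those over vehicle in brackets, were -0.67 (-1.11) for matrix genes and -1.21 (-1.35) for monocyte-derived macrophage genes. They were -0.898 (-0.998) for class II, -0.18 (-0.56) for stellate cell and -0.35 (-1.53) for B cell genes. Those of fatty acid oxidation, lipoprotein and bile acid genes were 0.29 (0.43), 0.27 (0.34) and 0.05 (0.31). The OA libraries differed in summed levels. Monocyte-derived macrophage genes stood at 2745, 2245 and 1420 CPM with OA, against 1472 to 1660 CPM with OA-NO2. Matrix genes stood at 2885, 2831 and 2016 CPM against 1597 to 2511 CPM. Class II genes stood at 911, 1102 and 473 CPM against 354 to 464 CPM. Without OA replicate 3, 130 of 14853 genes tested were called. The OA group then held only replicates 1 and 2, at 49.62 and 39.99 on the first principal component, without replicate 3 at -13.48. The OA-NO2 libraries lay at 10.28, -26.77 and -12.16.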

How the data were processed

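The authors deposited 1 table of whole-number read counts per gene, not normalised, for 24983 genes in 12 liver libraries. Per the labels' protocols, messenger RNA libraries (KAPA kit) were sequenced as paired reads of 76 bases and trimmed with Trimmomatic 0.35; GRCm38 is the build, and HTSeq, SAMtools 1.2 and HISAT2 2.1.0 the further tools, that the submitters' processing notes name. The sources used here do not state the annotation release, strand use, multi-mapping or filters. Ear tags show separate mice; replicate numbers only name the animals, in accession order, and pair none.

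Genes passing edgeR's default filter (minimum count 10, minimum total 15; 14469 genes) were TMM-scaled and fitted in edgeR 4.0.16 (R 4.3.3, quasi-likelihood, all 12 libraries, 1 coefficient per group, biological coefficient of variation 0.226), with Benjamini-Hochberg adjustment over all genes. Calls need an adjusted p under 0.05. Standard errors were taken from the fold change and its F statistic, and so are approximate. CPM use TMM-scaled totals and, with no correction for gene length, compare libraries, not genes; their precision is limited by 3 animals a group. A group is described by how many members had ranges that did not overlap. The members and the 45 gene lists (906 genes, 9 not in the table) were chosen with earlier results of these data known. Named genes are the 10 per direction with the lowest p, at least 1 CPM and no overlap, the 5 lowest p per direction, every called gene and 25 given genes; list members shown as examples were picked after their values were seen. Predicted genes, pseudogenes, Ig, TCR, histone and Mup genes were passed over in the rule (1 of 3 called). Symbols were matched for 24914 identifiers; the 69 without one held 0.0143% of counts. Positions are from GENCODE M21 on GRCm38, 1-based, and promoters from RefSeq. Alternatives were scaling, filters, robust spread, the 2 groups alone, DESeq2 1.42.0 and leaving out each library; the code was tested on simulated data. The values of 1 list member are not reported here, though it is counted in its list.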

Additional observations from a re-analysis of the deposited data

How the results depend on the processing

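The number of genes called between OA-NO2 and vehicle, 3 in the fit reported, was also 3 with relative log expression scaling and with library size alone, and 2 with robust spread. It was 151 without the filter on low counts, 1 with a mean of at least 1 CPM, 12 at an adjusted p under 0.1, 62 with the 2 groups alone and 300 with DESeq2, and it ran from 1 to 155 when 1 library was left out. Between OA-NO2 and OA the count of 1 became 10 without the filter and 51 with DESeq2, and ran from 1 to 130 when 1 library was left out. Among the fits that left out 1 library, the highest count in both comparisons came without OA replicate 3, and the cause was not tested. Nlrp12 (log2 fold change 1.67) and Mup17 (3.47) just missed the threshold with a mean of at least 1 CPM, both at an adjusted p of 0.0502, and Mup17 with robust spread at 0.139. Uncalled values near 0 changed sign: with library size alone Hmox1 was at -0.16 and Gclc at -0.19, and with a mean of at least 1 CPM at -2e-04 and -0.0092. With 1 library left out, Cd36 ran from -0.0754 to 0.434, Cidec from -0.242 to 0.0326, Cyp7a1 from -0.304 to 0.359, Gclc from -0.173 to 0.164 and Hmox1 from -0.0742 to 0.0885. No paired analysis was possible because the labels number no replicates: each animal has its own ear tag, and the replicate numbers used here follow accession order and pair no animals. There were 3 animals a group, and how far the spread between animals or depth limits what can be called was not tested.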
